A study of Mus musculus with 32 samples.

Results

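The osteocalcin gene cluster of the mouse is a set of 3 neighbouring genes on chromosome 3, Bglap (ENSMUSG00000074483.3), Bglap2 (ENSMUSG00000074486.3) and Bglap3 (ENSMUSG00000074489.10). They were taken by symbol from the 55359 gene identifiers of the deposited count tables, and all 3 were measured and passed the filter on low counts in bone and in gingiva. Osteocalcin is a small secreted protein of osteoblasts whose glutamate residues are carboxylated with the help of vitamin K, which lets it bind the mineral of bone matrix. Bglap and Bglap2 encode it in osteoblasts, and their transcription is a late marker of osteoblast differentiation. Bglap3, also called osteocalcin-related gene, encodes a closely related protein and is known for expression outside bone, in kidney among other organs.

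The animals were wild type males of the inbred strain C57BL/6J, aged 9 weeks. Control mice (Co) received no treatment, ligature mice (Li) a silk thread around the left upper second molar, trauma mice (Tra) composite resin on the biting surface of that tooth, and LiTra mice both. A ligature gathers bacterial plaque and is a standard periodontitis model, and the resin overloads the tooth. Each group had 4 poly(A) RNA-seq libraries of bone and 4 of gingiva, 32 in all; the labels give neither the time from treatment to sampling nor whether libraries came from separate animals, so a p-value here reflects how far the libraries of a group differ from each other.

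The 3 copies are nearly alike in sequence. The spliced transcripts of Bglap (440 bases) and Bglap2 (471 bases) were identical at 434 of 439 aligned positions, and 74.7% of the 50-base stretches of Bglap occurred unchanged in Bglap2. Bglap shared 20.5% of these stretches with Bglap3 and Bglap2 shared 37.9%. The rule by which the authors assigned reads that fit several copies is not stated in the labels, so each copy's own value is uncertain and the summed counts of the 3 genes are given beside it.

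The regions upstream of the start sites are shown for Bglap and Bglap3. How alike they are was not measured, and their part in the levels was not tested. RefSeq windows (GRCm38.p6) were at hand for Bglap and Bglap3. The 250 bases before the start of Bglap lie on the minus strand at chr3:88384467-88384716, and those before one of 3 listed starts of Bglap3 on the minus strand at chr3:88372742-88372991. Capitals mark matches to the motifs searched on both strands.
Bglap: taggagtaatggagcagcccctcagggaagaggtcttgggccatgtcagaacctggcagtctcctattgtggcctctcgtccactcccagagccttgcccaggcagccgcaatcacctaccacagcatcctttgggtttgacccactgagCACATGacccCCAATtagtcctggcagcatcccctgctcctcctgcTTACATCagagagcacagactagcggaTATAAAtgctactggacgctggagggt
Bglap3: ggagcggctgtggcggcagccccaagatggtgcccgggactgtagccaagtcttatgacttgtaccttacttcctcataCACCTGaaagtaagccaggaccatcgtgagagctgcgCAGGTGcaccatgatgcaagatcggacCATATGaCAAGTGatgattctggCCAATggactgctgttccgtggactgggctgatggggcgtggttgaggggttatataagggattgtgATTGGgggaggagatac
The Bglap window held TTACATC, the osteoblast element bound by ATF4, starting at -54 from the start site, an E-box (CANNTG) at -100, CCAAT at -90 and TATAAA at -27. The Bglap3 window held 4 E-boxes and 2 CCAAT matches but neither TTACATC nor the exact letters TATAAA, though it held TATATAAG. The letters AACCACA, the only Runx form searched, were in neither window. The shorter run ACCACA stands in the Bglap window, and its share among all windows was not counted. Among 32851 windows of 300 bases (250 before to 50 after a start), 2.44% held TTACATC, 13.6% TATAAA, 5.27% AACCACA, 37.4% CCAAT and 72.3% an E-box; a match describes letters only.

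A bone library held between 38163979 and 70793037 counts, and a gingiva library between 36913075 and 50740393. Levels are CPM, the depth-normalised count after TMM scaling, and changes are log2 ± SE from edgeR's quasi-likelihood test with 4 libraries per group. A change was called where its Benjamini-Hochberg adjusted p, over all genes, was under 0.05. In bone, genes of nasal glands (Bpifb9a, Bpifb9b and 4 odorant-binding protein genes) made up 47.0% of library Co 3, 27.7% of Tra 3 and 50.4% of LiTra 1. In these libraries 10 genes held 51.1% to 62.9% of all counts, and the main changes of the cluster in bone are therefore also given without them. Calls of other genes in bone are given with all libraries, or with 1 left out. Li 2, with 24.1% nasal gland counts, and Co 4, with 14.8%, remain in those fits. The tissue labels were checked on marker lists. Osteoblast and bone matrix genes summed to 16158 to 53577 CPM in bone and 3019 to 6811 CPM in gingiva, and 7 keratin genes of stratified epithelium to 38092 to 111473 CPM in gingiva and 16.1 to 6027 CPM in bone.

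Bglap and Bglap2 were abundant bone transcripts that also occurred in gingiva. Per kilobase of exon (GENCODE M21 models), Co bone held 3012 ± 620 CPM of Bglap (SD, n = 4), 2132 ± 486 of Bglap2 and 4.92 ± 4.84 of Bglap3. Co gingiva held 305 ± 147 CPM per kilobase of Bglap, 273 ± 138 of Bglap2 and 16.6 ± 7.84 of Bglap3. So in both tissues Bglap3 had the lowest level per length, below every Co library of the other copies. Bglap2 had fewer counts than Bglap in each Co bone library (log2 ratio -0.47 to -0.36), while in Co gingiva the ratio ran from -0.46 to 0.16. In a fit of all 32 libraries the cluster sum was 2.96 ± 0.47 higher in Co bone than in Co gingiva on the log2 scale (adjusted p = 7.21e-06), where 53.6% of genes were called in either direction. Bglap was 3.30 ± 0.55 higher in bone (adjusted p = 1.27e-05) and Bglap2 2.96 ± 0.53 (adjusted p = 3.64e-05), whereas Bglap3 had a difference of -1.80 ± 1.19 (adjusted p = 0.211).

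Bglap3 took a smaller share of the cluster counts in the Co bone libraries than in the Co gingiva libraries, though its ratio test did not pass after adjustment. In Co bone Bglap took 56.7% ± 0.44 (SD, n = 4) of the counts of the 3 genes, Bglap2 42.8% ± 1.05 and Bglap3 0.581% ± 0.689. In Co gingiva Bglap took 45.2% ± 5.23, Bglap2 42.3% ± 2.996 and Bglap3 12.5% ± 2.35. The log2 ratio of Bglap3 to Bglap was -9.72 to -5.16 in the Co bone libraries and -2.44 to -1.45 in the Co gingiva libraries, without overlap (difference -5.57, two-sided exact permutation test p = 0.0286, the smallest 4 against 4 can give, adjusted p = 0.0714 over 5 ratios). The Bglap2 to Bglap ratio overlapped between the tissues (difference -0.31, exact permutation p = 0.114). Over all bone libraries Bglap took 47.7% (Tra 3) to 57.1% (Co 3) of the counts and Bglap3 0.0309% to 10.8%.

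**Figure D1:**
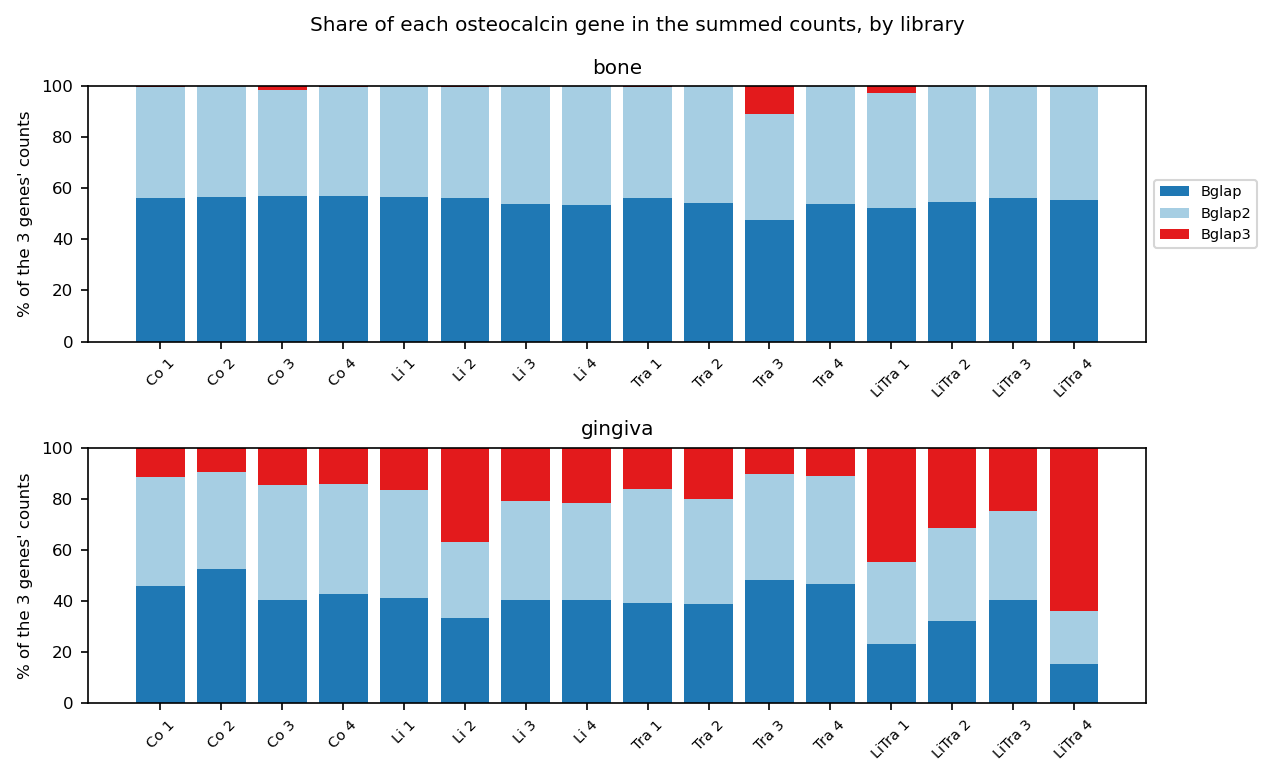
Share of each osteocalcin gene (percent of the counts of the 3 genes, stacked to 100) in each of the 16 bone libraries (top) and 16 gingiva libraries (bottom). Bglap3 is a thin band in bone except in Tra 3, where it reaches 10.8%, and takes 24.8% to 64.1% in the 4 gingiva LiTra libraries.

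In bone, the cluster was lower in mice with ligature and resin together than in controls or in mice with resin alone. The cluster sum in the 4 Co libraries was 2444, 2894, 1704 and 2321 CPM. In Li it was 908, 998, 1799 and 1791 CPM, and in LiTra 1101, 1716, 976 and 686 CPM. Only the lowest Co library (Co 3) lay within the range of the Li and LiTra libraries. Tra libraries held 3784, 3354, 2115 and 2471 CPM, above every Li and LiTra library. The sum was lower in LiTra than in Co by a log2 difference of -1.06 ± 0.32 (adjusted p = 0.0331), and lower than in Tra by -1.39 ± 0.32 (adjusted p = 0.0209). Li against Co gave -0.77 ± 0.32 (adjusted p = 0.218), Tra against Co 0.32 ± 0.31 (adjusted p = 0.77) and LiTra against Li -0.30 ± 0.31 (adjusted p = 0.944), none of them past the threshold. The interaction, the ligature effect with resin minus that without, was -0.62 ± 0.44 (adjusted p = 1). In these bulk samples fewer osteoblasts and less osteocalcin RNA per cell cannot be told apart.

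**Figure D2:**
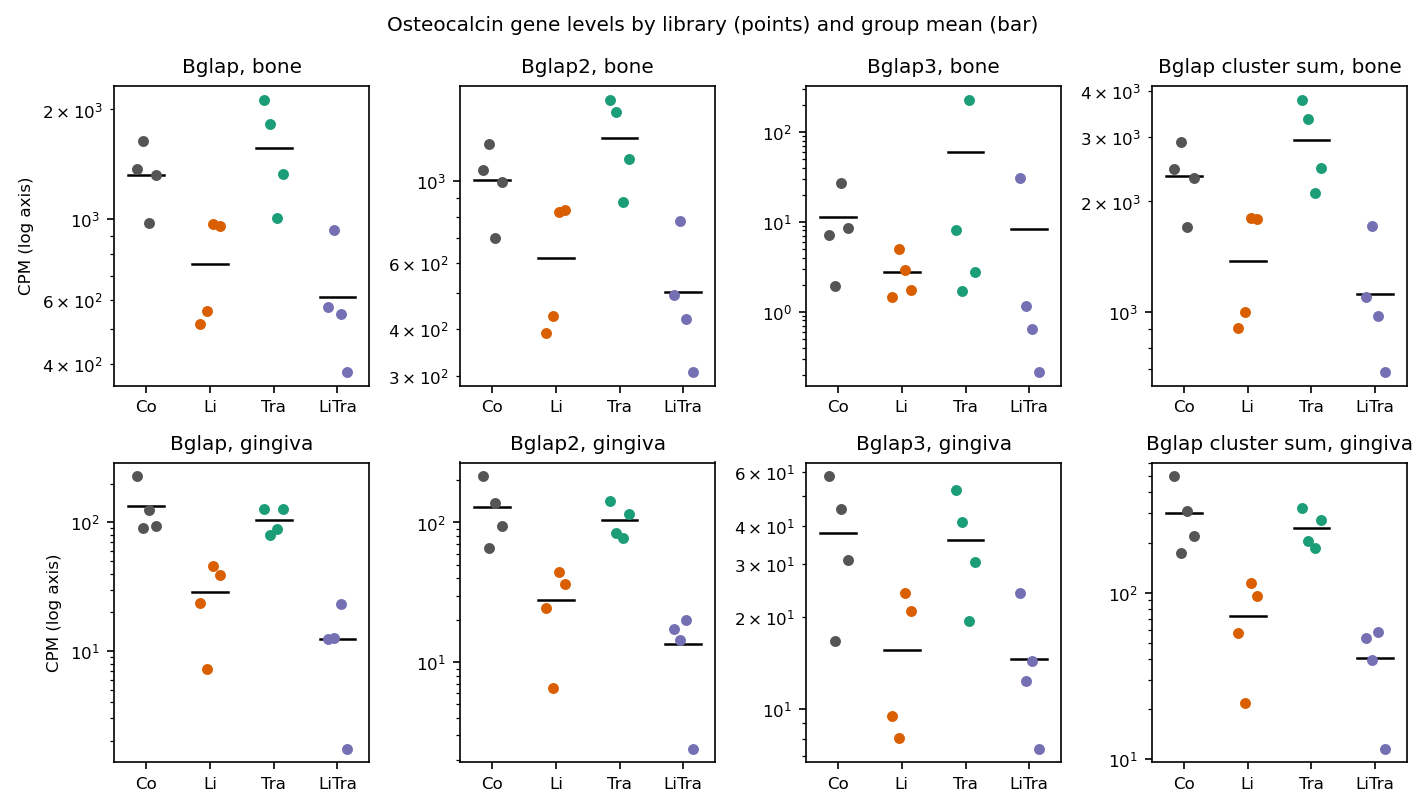
CPM (log axis) of Bglap, Bglap2, Bglap3 and their sum in each library of bone (top) and gingiva (bottom), by group; points are libraries and black bars group means (n = 4). In gingiva the Li and LiTra libraries of Bglap and Bglap2 lie below all Co libraries, in bone Bglap does by a margin that ends under another scaling and Bglap2 overlaps at Co 3, and single libraries carry the Bglap3 means of bone Tra and LiTra.

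Bglap, the first of the osteoblast copies, was at 1371, 1637, 973 and 1319 CPM in Co bone. It was at 516, 561, 971 and 958 CPM in Li, and at 575, 937, 549.9 and 380.1 CPM in LiTra. Every Li and every LiTra library was below every Co library, by a margin as small as 973 CPM in Co 3 against 971 in Li 3. With the scaling of the 32-library fit Co 3 was at 930 CPM, below Li 3 (971 CPM), Li 4 (953 CPM) and LiTra 2 (942 CPM), so this separation rests on the scaling. In Tra, Bglap was at 2128, 1824, 1009 and 1329 CPM, within and above the Co range. Bglap fell in LiTra against Co (-1.12 ± 0.31, adjusted p = 0.0254) and was lower in LiTra than in Tra (-1.36 ± 0.32, adjusted p = 0.0216). Li against Co, at -0.82 ± 0.31, did not pass (adjusted p = 0.179).

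Bglap2 followed Bglap closely. It was at 1066, 1255, 703 and 994 CPM in Co bone, 391, 432, 825 and 832 CPM in Li, and 495, 779, 426 and 306 CPM in LiTra. The Co 3 library again lay among the Li and LiTra values. Tra libraries held 1648, 1528, 878 and 1139.6 CPM of Bglap2, above every Li and LiTra library. Bglap2 fell in LiTra against Co (-1.002 ± 0.33, adjusted p = 0.0494) and was lower in LiTra than in Tra (-1.37 ± 0.33, adjusted p = 0.0261). Its Li against Co difference was -0.70 ± 0.33 (adjusted p = 0.294). The Bglap2 to Bglap ratio of a library overlapped between Co and each treated group, with a smallest p of 0.0571 in exact permutation tests.

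Bglap3, the copy known from outside bone, showed another pattern in bone, set by single libraries. Co bone held 7.16, 1.93, 27.2 and 8.56 CPM, Li 1.46, 5.04, 2.88 and 1.76 CPM, Tra 8.17, 1.71, 228 and 2.78 CPM, and LiTra 30.9, 1.16, 0.635 and 0.212 CPM. In each group the library highest in Bglap3 was also the one with the largest share of nasal gland counts (Co 3, Li 2, Tra 3 and LiTra 1). The part of these cells in the Bglap3 level was not tested. No Bglap3 comparison in bone passed the test: LiTra against Co was -0.46 ± 1.53 (adjusted p = 0.9) and Tra against Co 2.43 ± 1.60 (adjusted p = 0.649). Without those 3 libraries LiTra against Co was -3.13 ± 0.81 (adjusted p = 0.0169) and Tra against Co -0.48 ± 0.75 (adjusted p = 0.883).

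Of the 3 members, 2 were called lower in bone LiTra against Co, where 8.64% of 21205 genes were called lower, and 2 in LiTra against Tra, where 2.49% were. In Li against Co 0 of 3 were called by edgeR, DESeq2 or limma-voom, 1 had an unadjusted p under 0.05, and 0.849% of genes were called lower. In Tra against Co, in LiTra against Li and in the interaction, 0 of 3 were called by any of these tools and 0 had an unadjusted p under 0.05; edgeR called 0% of genes lower there. Without Co 3, Tra 3 and LiTra 1 the sum was lower in LiTra than in Co by -1.19 ± 0.34 (adjusted p = 0.0278) and than in Tra by -1.5004 ± 0.35 (adjusted p = 0.0183). In the same fits LiTra against Co was -1.22 ± 0.33 for Bglap (adjusted p = 0.0212) and -1.14 ± 0.36 for Bglap2 (adjusted p = 0.0396). Li against Co of the sum was then -0.90 ± 0.32 and still did not pass (adjusted p = 0.106). The LiTra against Co call of the sum was lost in 6 of 16 fits that left out 1 library (Co 1, Co 2, Co 4, LiTra 1, LiTra 3 or LiTra 4), with adjusted p from 0.0185 to 0.0925 over all 16. The Bglap call was lost in the same 6 fits (highest adjusted p = 0.0741) and the Bglap2 call in 12 of 16 (all but those without Co 3, Li 1, Tra 3 or LiTra 2; highest adjusted p = 0.131). The LiTra against Tra call of the sum was lost in 4 (LiTra 3, LiTra 4, Tra 1 or Tra 2), with adjusted p of at most 0.0699, that of Bglap in the same 4 (at most 0.0727), and that of Bglap2 in 6 (these 4, LiTra 1 and Tra 4, at most 0.0845). With library totals in place of TMM, edgeR called 12 genes in LiTra against Co and not the sum (-1.08, adjusted p = 0.593), nor the sum in LiTra against Tra (-1.38, adjusted p = 0.724); with no filter on low counts the former had an adjusted p = 0.0594. The Bglap and Bglap2 calls in LiTra against Co and against Tra were likewise lost with library totals. Their LiTra against Tra calls were lost in the compared groups alone (adjusted p = 0.0802 and 0.0718). With no filter the Bglap2 LiTra against Co call was lost too (adjusted p = 0.0843). Library totals also left 0 genes called in bone Li and LiTra against Co in each of the regulator, vitamin K, processing, matrix, osteocyte and osteoclast lists described below.

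**Figure D3:**
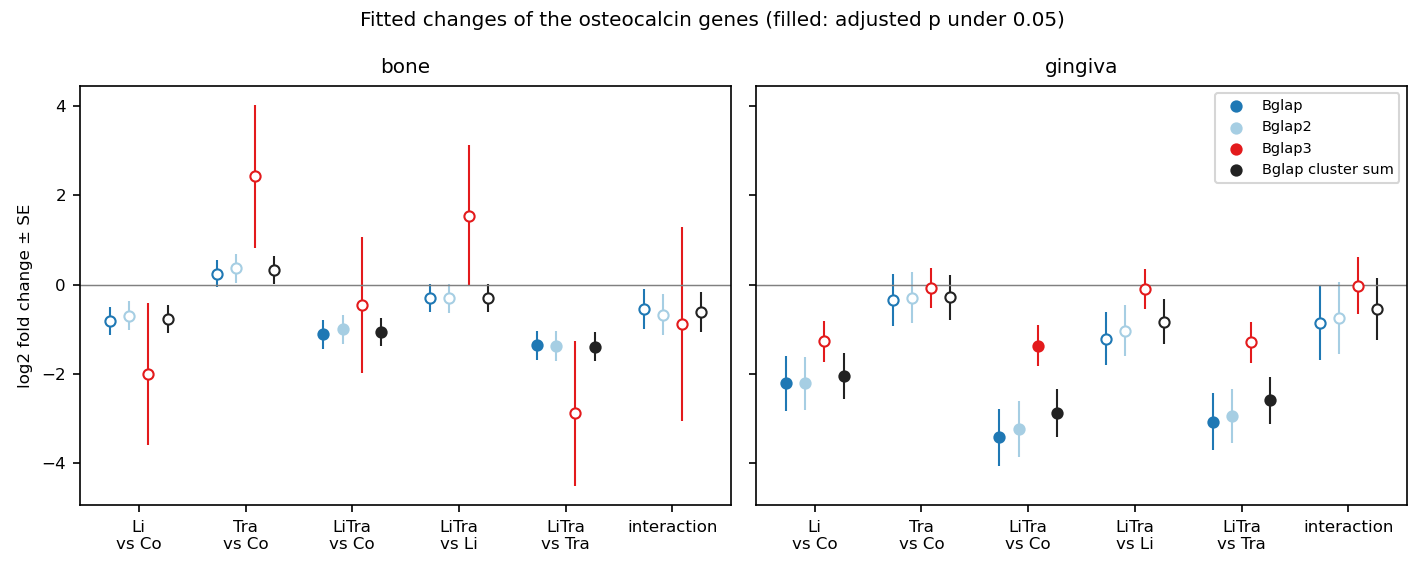
Fitted log2 fold changes ± SE of Bglap, Bglap2, Bglap3 and their sum in 6 comparisons, bone left and gingiva right (n = 4 libraries per group; filled circles have an adjusted p under 0.05). Bglap, Bglap2 and the sum were below 0 at the threshold in LiTra against Co and against Tra in both tissues, and Bglap3 in bone has wide errors.

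In gingiva the cluster fell with the ligature, with and without resin. The cluster sum was 502, 174, 308 and 218 CPM in Co and 321, 205, 186 and 272 CPM in Tra. It was 57.2, 21.9, 114 and 96.1 CPM in Li and 53.8, 39.6, 57.8 and 11.6 CPM in LiTra. Every Li and LiTra library was below every Co and Tra library. The log2 change of the sum was -2.05 ± 0.52 in Li against Co (adjusted p = 0.0275) and -2.88 ± 0.53 in LiTra against Co (adjusted p = 0.00216). LiTra was lower than Tra by -2.60 ± 0.53 (adjusted p = 0.00469). Tra against Co (-0.29 ± 0.50, adjusted p = 0.984), LiTra against Li (-0.83 ± 0.50, adjusted p = 0.41) and the interaction (-0.54 ± 0.70, adjusted p = 0.805) did not pass. The Li against Co call was lost in 4 of 16 fits that left out 1 library: adjusted p was 0.0933 without Co 1, 0.061 without Co 3, 0.0771 without Li 1 and 0.0691 without Li 2.

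Bglap was at 229, 90.9, 124 and 93.3 CPM in Co gingiva and at 23.5, 7.30, 46.1 and 38.9 CPM in Li. Its LiTra libraries held 12.3, 12.7, 23.2 and 1.74 CPM, all below the lowest Co library, and the Tra libraries 126, 79.3, 89.4 and 126 CPM, overlapping Co. Bglap fell in Li (-2.21 ± 0.61, adjusted p = 0.0401) and in LiTra (-3.42 ± 0.64, adjusted p = 0.00234) against Co. LiTra was lower than Tra by -3.07 ± 0.63 (adjusted p = 0.00497). The Li call was lost in 8 of 16 fits without 1 library (Co 1, Co 3, Co 4, Li 1, Li 2, LiTra 1, LiTra 2 or Tra 4; highest adjusted p = 0.125). It was also lost with no filter on low counts (adjusted p = 0.0646) and in the compared groups alone (adjusted p = 0.0688).

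Bglap2 was at 215, 66.0, 139 and 94.3 CPM in Co gingiva, and at 143, 84.3, 77.1 and 115 CPM in Tra. Li libraries held 24.3, 6.52, 44.2 and 36.2 CPM of Bglap2 and LiTra libraries 17.4, 14.4, 20.2 and 2.41 CPM, all below every Co library. Bglap2 fell in Li (-2.21 ± 0.59, adjusted p = 0.0363) and in LiTra (-3.24 ± 0.62, adjusted p = 0.0026) against Co. LiTra was lower than Tra by -2.95 ± 0.61 (adjusted p = 0.0052). The Li call was lost without Co 1, Co 3, Co 4, Li 1 or Li 2 (highest adjusted p = 0.113). It was also lost with no filter on low counts (adjusted p = 0.059) and in the compared groups alone (adjusted p = 0.0763).

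Bglap3 was also lower in LiTra gingiva. Co gingiva held 58.1, 16.7, 45.3 and 30.9 CPM, Li 9.46, 8.04, 24.1 and 21.0 CPM, Tra 52.3, 41.2, 19.4 and 30.3 CPM, and LiTra 24.1, 12.4, 14.4 and 7.40 CPM. The lowest Co library (Co 2) lay within the Li and LiTra ranges. Bglap3 fell in LiTra against Co (-1.37 ± 0.46, adjusted p = 0.0422), while Li against Co was -1.27 ± 0.46 (adjusted p = 0.103) and LiTra against Tra -1.30 ± 0.46 (adjusted p = 0.0607). The LiTra against Co call of Bglap3 was lost without Co 1, Co 3, Co 4, LiTra 2, LiTra 3, LiTra 4, Tra 2 or Tra 4, with a highest adjusted p of 0.137, and Bglap3 was called in LiTra against Tra (adjusted p = 0.0397 to 0.0484) without Co 2, LiTra 1 or Tra 3. LiTra against Tra was also called for Bglap3 by DESeq2 (-1.29, adjusted p = 0.0153), by limma-voom (-1.40, adjusted p = 0.0477) and in the compared groups alone (-1.29, adjusted p = 0.0439), and Li against Co by DESeq2 (-1.28, adjusted p = 0.0263). With no filter on low counts the LiTra against Co call of Bglap3 was lost (adjusted p = 0.0682).

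The ratio of Bglap3 to Bglap was higher in the gingiva Li and LiTra libraries than in the Co libraries, but not at an adjusted p under 0.05. Its log2 value averaged -1.87 ± 0.44 in Co (SD, n = 4), -1.62 ± 0.61 in Tra, -0.75 ± 0.62 in Li and 0.58 ± 1.21 in LiTra. Neither the Li nor the LiTra libraries overlapped Co (differences 1.12 and 2.44, each with a two-sided exact permutation p = 0.0286, the smallest possible, and an adjusted p = 0.0714 over 15 ratios and comparisons). Bglap3 took 41.3% ± 17.3 of the cluster counts in LiTra gingiva, with 64.1% in LiTra 4, where Bglap had 76 counts, Bglap2 105 and Bglap3 323.

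Of the 3 members, 2 were called lower in gingiva Li against Co by edgeR, where 2.3% of 20143 genes were called lower, 3 by DESeq2 and 2 by limma-voom. All 3 were called lower in LiTra against Co, where 11.5% of genes were, and 2 in LiTra against Tra, where 9.44% were. DESeq2 and limma-voom each called all 3 in both of these comparisons. In LiTra against Li, where edgeR called 0.0596% of genes lower, and in Tra against Co and the interaction, where it called 0% lower, 0 of 3 members were called by edgeR, DESeq2 or limma-voom and 0 had an unadjusted p under 0.05.

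The size of the fall in LiTra differed between tissues for Bglap and Bglap2 taken singly, while the sum did not pass. Other scalings and fits without libraries were run for the sum only in this comparison. In the fit of all libraries the LiTra effect in bone minus that in gingiva was 2.31 ± 0.72 for Bglap (adjusted p = 0.0334) and 2.25 ± 0.71 for Bglap2 (adjusted p = 0.0365), with 12.3% of genes called in either direction. For the sum it was 1.83 ± 0.62 (adjusted p = 0.0533), and 1.67 ± 0.69 (adjusted p = 0.107) without the 3 bone libraries. Bglap3 gave 0.97 ± 1.65 (adjusted p = 0.795). The Li effect of the sum differed by 1.29 ± 0.62 (adjusted p = 0.282, 2.04% of genes called) and the Tra effect by 0.58 ± 0.62 (adjusted p = 0.909, 0% called).

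Markers of other cells also changed, some falling and some rising. In LiTra against Co edgeR called 8.64% of all genes lower and 8.29% higher in bone. In gingiva it called 11.5% lower and 11.4% higher. These shares stand beside each list count of LiTra against Co here and below. In bone, all 7 erythroid genes fell in LiTra against Co, and their summed level ran from 22745 to 45225 CPM over the Co libraries, against 6810 to 20129 over Li, 14279 to 43754 over Tra and 1709 to 5919 over LiTra; no erythroid gene was at 0 in any group. Of 10 osteoclast genes 7 rose in bone LiTra, with sums of 2775 to 5159 CPM in Co and 6316 to 10650.0 CPM in LiTra. In gingiva, 5 of 7 keratin genes of stratified epithelium fell in LiTra and 1 rose, with sums of 73479 to 92071 CPM over the Co libraries, against 38092 to 85563 over Li, 90938 to 111473 over Tra and 41866 to 55772 over LiTra. All 10 osteoclast genes rose in gingiva LiTra, from 180 to 262 CPM in Co to 918 to 1451 CPM. None of the keratin or osteoclast genes was at 0 throughout a group. The summed level of 5 chondrocyte genes ran from 119 to 229 CPM in Co bone and 65.4 to 104 CPM in LiTra bone, and from 10.2 to 27.1 CPM in Co gingiva and 1.93 to 6.11 CPM in LiTra gingiva, where Col9a1 and Matn3 were at 0 in all Co libraries. Most of this was Col2a1, the cartilage collagen, which fell in LiTra by 1.45 on the log2 scale in bone (SE 0.34, adjusted p = 0.0106) and by 3.9988 in gingiva (SE 0.95, adjusted p = 0.00835), while Col9a1 rose in bone (2.47 ± 0.81, adjusted p = 0.049). Of 5 skeletal muscle genes 3 fell in gingiva LiTra and 0 were called in bone. Their gingiva sums were 44.1 to 1263 CPM over Co and 53.5 to 234 over LiTra. Of 5 periodontal ligament and tendon genes 0 were called in LiTra against Co in either tissue. The part of these cells in the cluster's change was not tested.

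Of 13 regulators of osteocalcin transcription 0 were called by edgeR in bone LiTra against Co, 1 (Cebpb) had an unadjusted p under 0.05, and their median log2 change was 0.16 beside -0.01 over all genes. Runx2, the master regulator of osteoblast fate, gave 0.21 ± 0.26 (adjusted p = 0.663), Sp7 (osterix), which acts after it, 0.11 ± 0.27 (adjusted p = 0.859), and Atf4, whose product binds the TTACATC element printed above, 0.36 ± 0.21 (adjusted p = 0.288). Cebpb, which cooperates with Atf4, gave 0.61 ± 0.24 (adjusted p = 0.105), Cbfb, the partner of Runx2, 0.22 ± 0.17 (adjusted p = 0.462), Nr3c1, the glucocorticoid receptor, -0.19 ± 0.13 (adjusted p = 0.381), and Twist1, an inhibitor of Runx2, 0.28 ± 0.27 (adjusted p = 0.569). In gingiva 6 of the 13 regulators fell and 1 rose in LiTra against Co, where 11.5% of all genes fell and 11.4% rose (median -0.46 beside -0.01). Sp7 was at 16.2 to 41.4 CPM in the Co gingiva libraries and 3.94 to 14.1 CPM in the LiTra libraries, with no overlap, and fell by 1.70 on the log2 scale (SE 0.44, adjusted p = 0.0133; 0.0504 without Co 3). Cbfb was the one that rose (0.26 ± 0.09, adjusted p = 0.0444; lost in 9 of 16 fits without 1 library, with adjusted p up to 0.114), and Runx2 was at -0.12 ± 0.20 (adjusted p = 0.723).

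Of 11 osteoblast and matrix genes 3 rose and 0 fell in LiTra against Co, where 8.29% of all genes rose (median 0.54 beside -0.01). Ibsp, bone sialoprotein of newly laid matrix, was at 1132 to 2403 CPM in the Co bone libraries and at 3836 to 7101 CPM in the LiTra libraries, and rose by 1.64 ± 0.28 (adjusted p = 0.00139). Ifitm5, a membrane protein of osteoblasts, rose by 1.38 ± 0.23 (adjusted p = 0.00132), and Spp1, osteopontin, by 0.99 ± 0.31 (adjusted p = 0.0425). The Spp1 call was lost in 11 of 16 fits without 1 library (all but those without Co 2, Li 3, Tra 2, Tra 3 or LiTra 1; highest adjusted p = 0.111). Col1a1, a chain of type I collagen, gave -0.02 ± 0.37 (adjusted p = 0.981), Smpd3, a sphingomyelinase needed for mineralization, 0.71 ± 0.26 (adjusted p = 0.0819) and Pth1r, the parathyroid hormone receptor, 0.54 ± 0.26 (adjusted p = 0.186). In gingiva, where 11.4% of all genes rose, 2 of the 11 rose, Ibsp (1.08 ± 0.30, adjusted p = 0.0199) and Spp1 (4.23 ± 0.79, adjusted p = 0.00234), and 5 fell (median -0.80): Phospho1, Omd, Alpl, Smpd3 and Pth1r, of which Phospho1, Omd and Alpl are named after their values were seen. Over the fits without 1 library 1 to 5 of the 11 fell: the Pth1r call was lost in 13 of 16 fits (highest adjusted p = 0.151), Smpd3 in 6, Alpl in 5, Omd in 4 and Phospho1 in 0. The Ibsp call was lost without Co 2, Co 4 or LiTra 2 (highest adjusted p = 0.0591).

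Ratios within a library need no scaling between libraries. In bone the log2 ratio of the sum to Ibsp was 0.27 to 0.59 in Co, -0.10 to 0.41 in Tra, -2.33 to -0.997 in Li and -3.37 to -1.65 in LiTra. The ratio to Sp7 was 3.67 to 4.24 in Co, 2.87 to 3.29 in Li and 2.05 to 3.32 in LiTra. In neither ratio did Li or LiTra overlap Co (each exact permutation p = 0.0286, adjusted p = 0.107 over 15). Ibsp was itself called higher in bone Li and LiTra and in gingiva LiTra. A rise of Ibsp lowers the ratio to Ibsp even where osteocalcin is unchanged. The ratio to Col1a1 overlapped (Li -0.97 and LiTra -1.26 against Co, exact permutation p = 0.0857 each). In gingiva the differences from Co were -2.62 (Li) and -4.14 (LiTra) in the ratio to Ibsp and -2.34 and -2.13 in that to Col1a1, without overlap with Co (exact permutation p = 0.0286, adjusted p = 0.0714). In the ratio to Sp7, which itself fell in LiTra, the LiTra difference was -1.22 (exact permutation p = 0.0857). Between the Co groups the sum to Sp7 ratio was 3.96 ± 0.24 in bone and 3.61 ± 0.77 in gingiva (SD, n = 4; exact permutation p = 0.4), and the sum to Col1a1 ratio -1.82 ± 0.73 and -2.04 ± 0.84 (p = 0.629 by exact permutation).

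**Figure D4:**
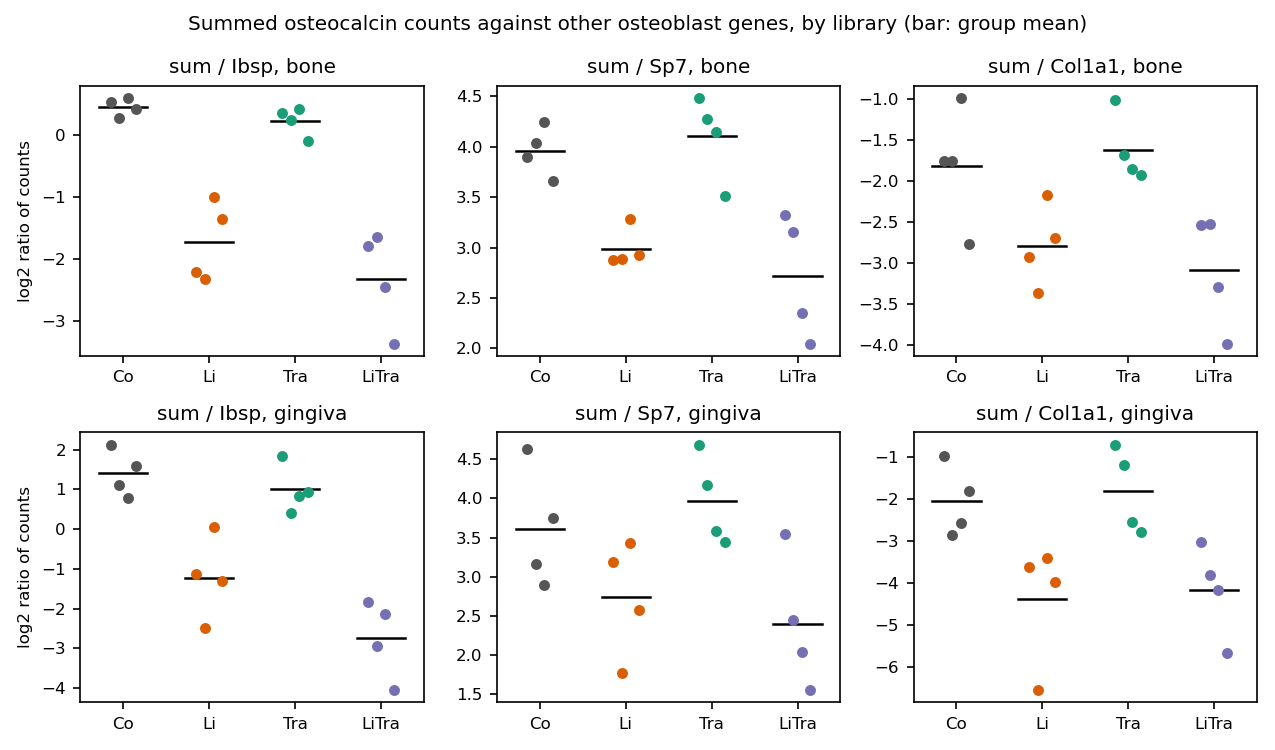
Log2 ratio of the summed osteocalcin counts to Ibsp, Sp7 and Col1a1 counts in each library, bone (top) and gingiva (bottom), by group; bars are group means (n = 4). In bone the Li and LiTra libraries lie below all Co libraries for Ibsp and Sp7 and overlap Co for Col1a1.

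Osteocyte genes were mostly not called. In bone LiTra against Co 1 of 8 rose, Pdpn, a membrane protein of early osteocytes (1.29 ± 0.25, adjusted p = 0.00275), and the list's median was -0.41. Dmp1, a matrix protein of osteocytes, gave -0.30 ± 0.38 (adjusted p = 0.674), Phex, an endopeptidase of osteocytes, -0.42 ± 0.30 (adjusted p = 0.397), Sost, which encodes the Wnt inhibitor sclerostin, -0.79 ± 0.53 (adjusted p = 0.365), Fgf23, the phosphate hormone, -0.88 ± 0.52 (adjusted p = 0.294) and Fam20c, a kinase of secreted proteins, -0.47 ± 0.25 (adjusted p = 0.223). In gingiva 7 of the 8 passed the filter, all but Sost. There Pdpn rose (1.97 ± 0.27, adjusted p = 0.000441) and Phex fell (-2.32 ± 0.61, adjusted p = 0.0143), with a median of -0.29. Pdpn was at 17.1 to 23.3 CPM in Co gingiva and 12.4 to 18.3 CPM in Co bone. Mepe, also on this list, was at 0.291 to 4.91 CPM in Co gingiva and 71.5 to 154 CPM in Co bone. Which cells of the gingiva held Pdpn was not tested.

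In bone LiTra against Co 5 of 8 genes of the vitamin K cycle and other Gla proteins rose and 0 fell, where 8.29% of all genes rose (median 0.61 beside -0.01). Ggcx, the carboxylase that makes the Gla residues of osteocalcin, rose by 0.56 ± 0.14 (adjusted p = 0.0141), and Vkorc1, which regenerates vitamin K, by 0.86 ± 0.14 (adjusted p = 0.00105). Calu, encoding calumenin, an inhibitor of this system, rose by 1.18 ± 0.16 (adjusted p = 0.000481), Mgp, another Gla protein that limits mineralization, by 0.88 ± 0.20 (adjusted p = 0.00936) and Pros1, protein S, another Gla protein, by 0.66 ± 0.19 (adjusted p = 0.0278). The Ggcx call was lost without Co 4 or LiTra 2 (highest adjusted p = 0.052) and the Pros1 call without Co 1, Co 3, Co 4, LiTra 2, LiTra 3 or LiTra 4 (highest adjusted p = 0.0873). In gingiva 3 of 8 rose (Calu 0.79 ± 0.11, Pros1 0.81 ± 0.13 and Vkorc1 0.43 ± 0.09) and 1 fell, Gas6, a ligand of TAM receptors (-0.65 ± 0.11, adjusted p = 0.00129), named after its value was seen.

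**Figure D5:**
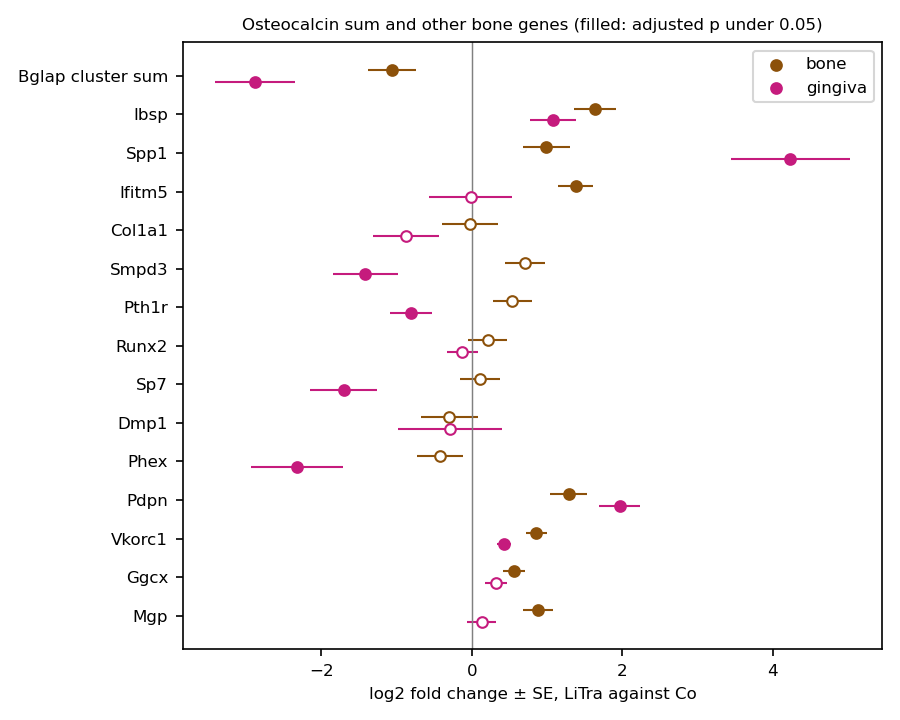
Log2 fold change ± SE of LiTra against Co for the osteocalcin sum and 14 other bone genes, in bone and gingiva (n = 4 per group; filled circles have an adjusted p under 0.05). The osteocalcin sum is below 0 in both tissues, while Ibsp, Spp1 and Pdpn are above 0 in both.

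Of genes tied to release of osteocalcin from matrix and to its signalling, Tcirg1, a proton pump subunit of osteoclasts, rose in LiTra against Co in bone (0.91 ± 0.20, adjusted p = 0.00614) and in gingiva (2.02 ± 0.19, adjusted p = 7.9e-05). It was the one call among 6 tested of 7 in bone (median 0.21). In gingiva the 6 tested had 2 that rose and 1 that fell: Ptprv, a phosphatase of the insulin receptor in osteoblasts, fell (-1.18 ± 0.31, adjusted p = 0.0144; 0.0517 without Co 3). Gpr158, a receptor proposed for osteocalcin in brain, was at 0 counts in all 4 Co gingiva libraries and at 0.329, 0.069, 0.379 and 0.183 CPM in LiTra, at least 13-fold higher than 3 counts over the Co group allow (adjusted p = 0.0241; 0.0517 without LiTra 1). Furin, which cleaves pro-osteocalcin, gave 0.30 ± 0.29 in bone (adjusted p = 0.561) and -0.16 ± 0.26 in gingiva (adjusted p = 0.72), and Insr, the insulin receptor, 0.05 ± 0.08 in bone (adjusted p = 0.771) and 0.25 ± 0.15 in gingiva (adjusted p = 0.249). Gprc6a, another proposed receptor, was below the filter in both tissues. Gpr37, also on this list, was tested in both tissues and not called in LiTra against Co.

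The same lists were counted with the ligature alone. Over all genes in Li against Co edgeR called 565 of 21205 higher and 180 lower in bone. In gingiva it called 1046 of 20143 higher and 463 lower. In bone Li against Co 0 of 13 regulators, 3 of 8 vitamin K and Gla genes (Calu, Mgp and Vkorc1, all higher), 1 of 6 processing and receptor genes (Tcirg1, higher), 2 of 11 matrix genes (Ibsp and Ifitm5, both higher) and 0 of 8 osteocyte genes were called. Leaving out 1 library lost the Mgp call in 9 of 16 fits (highest adjusted p = 0.125), Vkorc1 and Tcirg1 in 5 each, and Ibsp and Ifitm5 in 2 each, and the vitamin K and Gla genes that rose numbered 1 to 5. In gingiva Li against Co the numbers that rose and fell were 1 and 0 of the regulators (Cebpb rose), 2 and 0 of the vitamin K and Gla genes, 2 and 1 of the processing genes, 1 and 1 of the matrix genes, and 1 and 0 of the 7 osteocyte genes. Leaving out gingiva Li 2 lost the calls of Cebpb (adjusted p = 0.111), Calu (0.143), Pros1 (0.0568), Gpr158 (0.11) and Spp1 (0.0525). Each of these was also lost without some other single libraries. A fall was gained for Smpd3 without Li 3 (adjusted p = 0.0464) and for Sp7 without Li 4 (adjusted p = 0.0432). In Tra against Co edgeR called 0 genes in either tissue, with 2023 genes in bone and 1323 in gingiva at an unadjusted p under 0.05; DESeq2 called 160 and 92, and limma-voom 0 and 4.

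Of the 5 tested genes next to the cluster, 1 fell in LiTra against Co in each tissue. In bone it was Pmf1, a kinetochore gene, by 0.53 on the log2 scale (SE 0.16, adjusted p = 0.032; lost in 6 of 16 fits without 1 library, with adjusted p up to 0.115), while Tmem79, Smg5, Paqr6 and Slc25a44 were not called. In gingiva it was Tmem79 (-1.21 ± 0.21, adjusted p = 0.00173) and Smg5, Paqr6, Pmf1 and Slc25a44 were not called. Gm6821, a pseudogene inside the cluster, was at 0 to 1.02 CPM in bone, and its LiTra against Co difference was -1.37 ± 1.25 (adjusted p = 0.535).

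Across the 16 bone libraries log2 CPM of Bglap and Bglap2 had a Pearson r of 0.99, and of Bglap and Bglap3 0.17; in gingiva these were 0.99 and 0.84. These values describe libraries that share groups and reads between copies. Of 11325 other bone genes with a mean log2 CPM of at least 3, the 8 most like the cluster sum over the 16 libraries were Col2a1 (r = 0.92), Entpd3 (0.88), D5Ertd579e (0.87), Pcmtd2 (0.87), Bcl11a (0.87), Blnk (0.86), Psmf1 (0.85) and Arglu1 (0.85). Ibsp had r = -0.61, Col1a1 0.09, Runx2 0.18, Sp7 0.28 and Dmp1 0.25. In gingiva, among 11288 genes, the 8 were Serpinb7, Mt3, Mgst3, Tmem45a2, March8, Mt4, Ces1h and Ppl, with r from 0.94 to 0.95. Sp7 had r = 0.82 with the sum there, Ibsp -0.48, Col1a1 0.16, Runx2 0.09 and Dmp1 -0.05. With group means removed, r in bone was 0.77 for Col2a1, 0.57 for Sp7, 0.59 for Runx2 and 0.20 for Ibsp. In gingiva it was then 0.53 for Sp7, 0.31 for Ibsp, -0.08 for Col1a1, 0.03 for Runx2 and 0.09 for Dmp1.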

How the data were processed

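RNA isolation used TRIzol and a column kit before poly(A) libraries were made, per the labels' protocols. The values are estimated counts of each gene, which the authors deposited as whole numbers. Trimmomatic 0.39, FastQC 0.11.9, HISAT2 2.2.1, StringTie 2.1.7, DESeq2 1.32.0 and build GRCm39 are named, without roles, per the submitters' processing notes; how reads were assigned, and whether by strand, is not given in the sources used here. Columns named CR were taken as the resin (Tra) libraries. Identifiers were matched to GENCODE M21 symbols (52083 of 55359).

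All 16 libraries of a tissue entered 1 fit in edgeR 4.0.16 (R 4.3.3) with TMM scaling and filterByExpr (minimum count 10, total 15), which tested 21205 genes in bone and 20143 in gingiva. The sum was fitted with the 3 rows replaced by 1. A fit of 32 libraries tested tissue differences over 22559 genes. Within-library ratios used counts + 0.5. Fits were tested on simulated counts. No libraries held identical values. Copies were aligned with Biopython 1.88; figures used matplotlib 3.10.9.

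Named genes were the members, up to 5 genes of each list with the smallest p in bone LiTra against Co, Runx2, Sp7, Col1a1, Ibsp and Dmp1, 3 neighbours on each side and the 8 genes most like the sum. The members and lists were chosen with earlier results of these data known. Alternatives were other scalings, filters and tools (DESeq2 1.42.0, limma 3.58.1), compared groups alone, a replicate block, 1 added to counts and leaving out libraries; the joint fit without 3 bone libraries was chosen after seeing the data.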

Additional observations from a re-analysis of the deposited data

Results flagged for a closer look

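In bone, the Bglap3 level of Tra 3 (228 CPM) stood apart from the 1.71 to 8.17 CPM of the other Tra libraries, and that of LiTra 1 (30.9 CPM) from the 0.212 to 1.16 CPM of the other LiTra libraries. These were the 2 libraries far from their group among 32 groups of 4 examined (3 genes and their sum in 8 groups), where chance alone flags about 1 in 20. The effect of LiTra against Co differed between bone and gingiva for Bglap (2.31 on the log2 scale, edgeR adjusted p = 0.0334) and for Bglap2 (2.25, adjusted p = 0.0365). The sum of the 3 genes did not pass in this comparison, and the single copies were not refitted.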

How the results depend on the processing

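Refits of the sums kept direction and side of the threshold in 317 cases, lost the call in 20, gained it in 2 and turned in 1. The bone LiTra against Co sum was not called with library totals (-1.08), with no filter (-1.06) or with the replicate block (-1.08, adjusted p = 0.0515). LiTra against Tra in bone was not called in the compared groups alone (-1.38) or with library totals (-1.38), nor gingiva Li against Co in the compared groups alone (-2.06); the joint LiTra difference passed with DESeq2 size factors (1.85). Leaving out 1 library gave -1.35 to -0.89, -1.67 to -1.21, -2.35 to -1.68 and 1.47 to 2.02 for these, and -0.48 to 0.078 for gingiva Tra against Co, above 0 without Co 1. For the joint difference only the 8 Co libraries were left out singly. Correlations showed no clear pairing of libraries by title number. The median r was -0.08 in bone and 0.01 in gingiva over 24 same-number pairs. In bone 4 and in gingiva 1 of 16 libraries correlated best with their own number. Between bone and gingiva of 1 number the median r was 0.028, and 6 of 16 matched best. These correlations cannot show whether libraries of 1 number came from 1 animal. The main fit of all 32 libraries treated them as separate. The replicate block changed no other call of a sum. Of the members, it ended the bone Bglap2 call in LiTra against Co (adjusted p = 0.0717), leaving 1 of 3, and called gingiva Bglap3 in LiTra against Tra (-1.38, adjusted p = 0.04997). It turned bone Col1a1 in Li (0.058) and LiTra (0.073), gingiva Bglap3 in Tra (0.036) and gingiva Ifitm5 in LiTra (0.010).

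Bone Bglap3 turned with limma-voom and without Co 3, Tra 3 and LiTra 1, to -1.79 and -2.06 in LiTra against Li and to -0.45 and -0.48 in Tra against Co. Without 1 library it ran from -4.04 to 0.47 in LiTra against Co, -2.04 to 1.99 in LiTra against Li, -6.47 to 1.003 in LiTra against Tra, -1.38 to 3.35 in Tra against Co and -4.47 to 2.99 in the interaction. In gingiva Tra against Co, Bglap ran from -0.50 to 0.037, Bglap2 from -0.51 to 0.075 and Bglap3 from -0.32 to 0.21; gingiva Bglap3 ran from -0.46 to 0.18 in LiTra against Li and from -0.38 to 0.25 in the interaction, which library totals put at 0.10. Library totals turned bone Col1a1 in Li (0.031), gingiva Atf4 in Li (0.040) and gingiva Ifitm5 in LiTra (0.076), limma-voom bone Col1a1 in LiTra (0.027), bone Sp7 in Li (-0.000796) and gingiva Ifitm5 (0.19), the stricter filter gingiva Ifitm5 (0.0024), and leaving out the 3 bone libraries Sp7 (-0.038) and Twist1 (-0.020) in Li. Without 1 library, bone Col1a1 ran from -0.30 to 0.35 in Li and in LiTra, Insr from -0.019 to 0.10 and Twist1 from -0.018 to 0.33 in Li, and Sp7 from -0.049 to 0.28 in Li and -0.079 to 0.26 in LiTra. In gingiva Li, Atf4 ran from -0.036 to 0.024, Col1a1 from -0.084 to 0.46, Dmp1 from -1.01 to 0.69 and Fam20c from -0.031 to 0.24; in LiTra, Dmp1 from -0.77 to 1.07, Fgf23 from -0.065 to 0.67, Ifitm5 from -0.32 to 0.44, Mgp from -0.074 to 0.33 and Runx2 from -0.30 to 0.032. Library totals put the median change of all genes at 0.13 in bone Li against Co (-0.02 with TMM), -0.10 in bone LiTra against Li (0.00 with TMM) and 0.13 in gingiva LiTra against Tra (-0.01 with TMM). The causes were not tested. Bglap3 in bone rests on as few as 12 counts in a library.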
